A study of Homo sapiens with 58 samples.

Results

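HuR-bound RNA captured near the stress granule protein G3BP1 was compared with HuR-bound RNA captured in the cytoplasm at large, in unstressed Huh-7.5 cells, an established human hepatocellular carcinoma line. The comparison takes 8 of the 58 libraries of the series. They are the 4 streptavidin-enriched mock libraries of the APEX-G3BP1 line that share a library set with the NES line (G3BP 3 to 6), and the 4 enriched mock libraries of the APEX-NES line (NES 1 to 4). The library set is the prefix of each sample's description: G3BP 3 and 4 and NES 1 and 2 belong to set JL0388, and G3BP 5 and 6 and NES 3 and 4 to set JL1024. The G3BP mock libraries 1 and 2 belong to a set with no NES library and were not compared.

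HuR, encoded by ELAVL1, is an RNA-binding protein that recognises U-rich and AU-rich elements in introns and 3′UTRs, shuttles between nucleus and cytoplasm, and stabilises many of the mRNAs it binds. APEX is an engineered ascorbate peroxidase that biotinylates proteins close to it when given biotin phenol and hydrogen peroxide. Fused to G3BP1, a protein that nucleates stress granules and is spread through the cytoplasm of unstressed cells, it labels the surroundings of G3BP1; with a nuclear export signal (NES) it labels the cytoplasm broadly. HuR immunoprecipitation followed by streptavidin capture then recovers RNA crosslinked to HuR that was biotinylated in that place.

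Both lines carry an APEX fusion, so all 8 libraries come from cells that express one, and all received the labelling reaction. Mock cells got no arsenite. Per the labels' protocols, cells received 0.5 mM biotin phenol for 30 min and 1 mM hydrogen peroxide for 1 min, were irradiated with UV in successive doses of 400 and 200 mJ/cm2, and lysates were digested with RNase I at either of 2 dilutions, without a statement of which library got which. The promoter and the number of clones behind each line are not given in the sources used here. The labels do not say that libraries of a group came from separate cultures, so p-values measure the spread between these libraries, which may be technical. Of 9 hepatocyte markers examined, AFP held 150 tags over the 8 libraries, APOB 25, FGB 10, ALB 9, TF 6, SERPINA1 2 and APOH 0. Of 9 immune, endothelial and stromal markers, PTPRC held 3 tags and the others 0 or no listed peak; APOA1 and TTR also had no listed peak.

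The libraries differed widely in depth, and depth moved with the groups in opposite ways in the sets. In set JL0388, G3BP 3 and 4 held 1831 and 679 tags in peaks, against 2981 and 4589 in NES 1 and 2. In set JL1024, G3BP 5 and 6 held 30355 and 86419, against 5011 and 4400 in NES 3 and 4. G3BP 5 and 6 supplied 85.7% of all tags of the comparison. Levels are given in CPM, the tags of a feature scaled to the library total, and 1 tag was worth 67.8 CPM in G3BP 3, 214.5 CPM in G3BP 4, 2.99 in G3BP 5 and 1.06 in G3BP 6, against 8.74 to 26.4 CPM in the NES libraries. A feature with no tag in G3BP 3 or 4 may therefore lie as high as 203 or 644 CPM, taking 3 tags as the limit that a count of 0 allows; intervals and this limit cover counting error only. G3BP 3 and 4 did not differ beyond sampling noise over the 23 features with enough tags (permutation p = 0.369), whereas G3BP 5 and 6 did over 4401 features (permutation p = 0.001, the smallest the resamples can give). They were kept as separate libraries because the percentage of the library total that lay in peaks was 12.4% in G3BP 3 (95% Wilson interval 11.9% to 12.9%) and 14.6% in G3BP 4 (13.6% to 15.6%), so the intervals did not meet.

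In the libraries compared, more of the G3BP tags lay in the listed peaks, an order that other libraries of the lines did not all share. The percentage was 12.4%, 14.6%, 9.08% and 9.15% in G3BP 3 to 6, and 7.88%, 9.12%, 4.38% and 4.17% in NES 1 to 4. Within each set both G3BP libraries lay above both NES libraries, by 4.99 percentage points in JL0388 and 4.84 in JL1024. Over all 8 the means were 11.3% ± 2.67 (SD, n = 4) and 6.39% ± 2.49 (SD, n = 4), a difference of 4.91 points that did not pass the two-sided exact permutation test (p = 0.0571; the smallest p that 4 against 4 allows is 0.0286). Levels below are scaled to the library total, so this difference enters them; scaled to tags in peaks instead, the median log2 difference over all features was -0.07 in place of 0.19.

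Introns held a larger share of the HuR tags in each of the 4 G3BP libraries compared than in any NES library, a difference that did not pass adjustment and did not hold in all other libraries of the lines. Intronic peaks held 33.9%, 36.2%, 37.5% and 39.3% of the tags in peaks in G3BP 3 to 6, and 31.7%, 32.0%, 17.6% and 27.2% in NES 1 to 4. Every G3BP library lay above every NES library. The means were 36.7% ± 2.28 (SD, n = 4) and 27.1% ± 6.70 (SD, n = 4), and the difference of 9.63 points gave p = 0.0286 in the two-sided exact permutation test, the smallest possible here, and 0.2 after Benjamini-Hochberg adjustment over the 7 classes tested, so it did not pass the threshold of 0.05. Permuted within library sets, introns gave an exact p of 0.0556, the smallest that 36 assignments allow, and so did unannotated peaks and the percentage of tags in peaks; that test cannot reach 0.05. The gap was 3.23 points in JL0388 and 16.02 points in JL1024. In the input libraries of the same lines, which had HuR immunoprecipitation without streptavidin capture, introns held 50.0% (G3BP) and 48.9% (NES) in JL0388 and 33.2% (G3BP) and 34.3% (NES) in JL1024. G3BP 1 and 2, of the set without NES libraries, held 18.1% and 23.2%, below NES 1, 2 and 4. After arsenite the order of the lines turned between sets, with means of 15.1% (G3BP) and 26.2% (NES) in JL0388 and 25.8% and 16.1% in JL1024, from 2 libraries each.

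The 3′UTR share, by contrast, did not separate the lines. It was 35.9%, 29.9%, 24.2% and 22.6% in G3BP 3 to 6 and 34.7%, 36.7%, 8.94% and 16.1% in NES 1 to 4 (means 28.1% ± 6.03 and 24.1% ± 13.7, SD, n = 4; exact permutation p = 0.571). The difference was -2.83 points in JL0388 and 10.9 points in JL1024. When 3′UTR tags were expressed as a percentage of 3′UTR plus intron tags, a ratio chosen after its parts had been seen, the values were 51.4%, 45.2%, 39.2% and 36.5% in G3BP and 52.3%, 53.4%, 33.7% and 37.2% in NES. The balance between mature 3′UTRs and introns overlapped between lines, with G3BP lower in JL0388 by 4.55 points and higher in JL1024 by 2.43.

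Noncoding RNA peaks held 11.9%, 13.1%, 13.7% and 12.3% of the tags in G3BP 3 to 6. In NES 1 and 2 the share was 12.7% and 11.3%, and in NES 3 and 4 it was 36.4% and 21.6%. The 2 NES libraries of JL1024 stood far above the other 6, and the means of 12.7% ± 0.8286 and 20.5% ± 11.5 (SD, n = 4) gave an exact permutation p of 0.371. Unannotated peaks ranged from 10.8% to 13.8% in G3BP and from 13.1% to 21.0% in NES (difference -3.80 points, exact permutation p = 0.0857). Without NES 3 this difference was -2.31 points, and without NES 2 it was -4.95 with an exact permutation p of 0.0286 (0.1 adjusted). The ncRNA difference of -7.78 points was -2.48 without NES 3, and the intron difference 6.46. The class called Other, transposable elements and the 10-kb downstream regions differed by 0.939, -0.642 and 0.175 points, with exact permutation p of 0.343, 0.771 and 0.314. Leaving out 1 library, Other ranged from 0.340 (without G3BP 6) to 1.60 (without NES 4). Downstream regions ranged from 0.069 (without NES 3) to 0.241 (without NES 2), and transposable elements turned to 0.587 without NES 4. No class passed after adjustment. With 7 classes and a smallest p of 0.0286, more than 4 classes would have had to reach that p together for any to fall under 0.05. The adjusted values therefore say little.

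**Figure D1:**
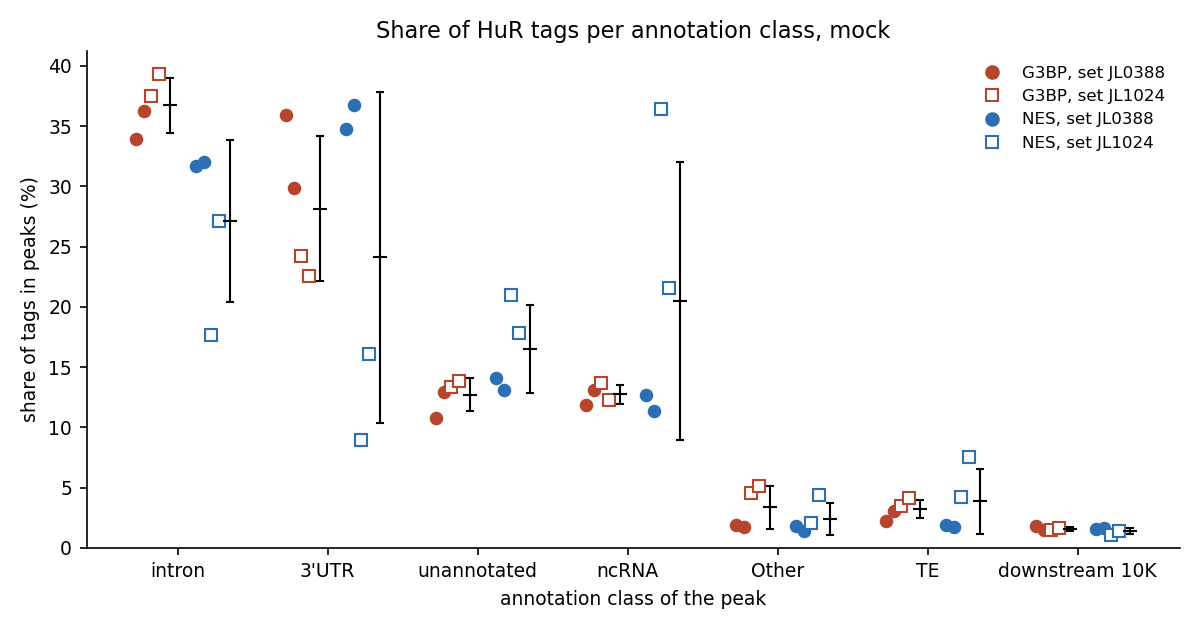
Share of the tags in peaks (%, vertical axis) per annotation class (horizontal axis) in the 4 G3BP (red) and 4 NES (blue) mock libraries, with filled circles for set JL0388, open squares for set JL1024 and black bars for mean ± SD. The 4 G3BP libraries lie at 33.9% to 39.3% for introns, above the NES libraries at 17.6% to 32.0%, and NES 3 and 4 stand apart in the ncRNA class at 36.4% and 21.6%.

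To find single RNAs that differed, tags were summed per gene and annotation class, and 1292 such features were tested with limma on log2(CPM + 14.7 CPM) with the library set as covariate. None passed Benjamini-Hochberg adjustment at 0.05 in either direction (0% of features called). At an unadjusted p under 0.05, 57 were higher in G3BP (4.41% of features) and 10 lower (0.774%); scaled to tags in peaks, the counts were 19 and 26, and centred on the median difference 36 and 13. These counts rest on single libraries and sets: leaving out 1 library gave 28 (without NES 1) to 204 (without G3BP 4) higher and 3 to 17 lower. JL0388 alone gave 9 higher and 272 lower, and JL1024 alone 479 and 22. The median log2 difference over all features was 0.19, and 58.5% were above 0. Entry to the test leaned on the deep libraries: 1270 and 1289 of the 1292 features had a tag in G3BP 5 and 6, against 534 and 708 in NES 3 and 4. The lean towards G3BP therefore depends on the filter. Over the 14264 features seen in at least 1 library the median was 0.05. Summed over classes, 0 of 1524 genes passed, with 71 higher (4.66%) and 8 lower (0.525%) at an unadjusted p under 0.05, and 59.7% of genes above 0. These gene counts moved likewise, to 25 higher and 28 lower scaled to tags in peaks, 17 and 296 in JL0388 alone and 586 and 27 in JL1024 alone. Leaving out 1 library gave 35 (without NES 1) to 274 (without G3BP 4) higher. edgeR's quasi-likelihood test on the recovered whole tags called 7 features (0.542%), 1 higher (0.0774%) and 6 lower (0.464%). DESeq2 called 0 higher and 9 lower (0.697% of the 1292), but gave no adjusted p for 1227 of the features. Its adjusted p-values therefore cover far fewer features than those of limma and edgeR and are not on the same footing. limma with estimated library quality weights, which were 4.19 and 4.34 for G3BP 5 and 6 and 0.239 and 0.138 for G3BP 3 and 4, called 176 (13.6%), 154 higher (11.9%) and 22 lower (1.7%). None of the features named below passed the unweighted limma test; with quality weights, 35 of the 49 features followed through the alternatives passed with the same sign and TNRC6B with the opposite one. edgeR scaled by TMM on tags in peaks called 0 features, with 12 higher and 50 lower at an unadjusted p under 0.05.

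The sets differed in the direction of their median. The median log2 difference was -0.47 in JL0388 and 0.68 in JL1024, and across the 1252 features with a value in both sets the within-set differences were uncorrelated (Spearman's rho = -0.02, Pearson's r = -0.003; features share libraries, so no p is given). Of the 1292 features, 580 had no tag in G3BP 3 and 4 together. In 74 features (5.73%) both G3BP libraries lay above both NES libraries within each set; 32 of these (43.2%) were 3′UTR, 32 (43.2%) intron, 9 (12.2%) ncRNA and 1 CDS features, beside 35.8%, 52.6% and 9.13% for the first 3 classes among all features tested. In 32 of the 74, G3BP 3 and 4 held at most 2 tags between them. In 17 features (1.32%) both G3BP libraries lay below both NES libraries in each set; 6 (35.3%) were ncRNA, 5 (29.4%) snoRNA, 3 (17.6%) 3′UTR, 2 (11.8%) intron and 1 unannotated, where snoRNA features, of which 4 are U3 copies, make up 0.774% of all tested. All 17 had no tag in G3BP 3 and 4.

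**Figure D2:**
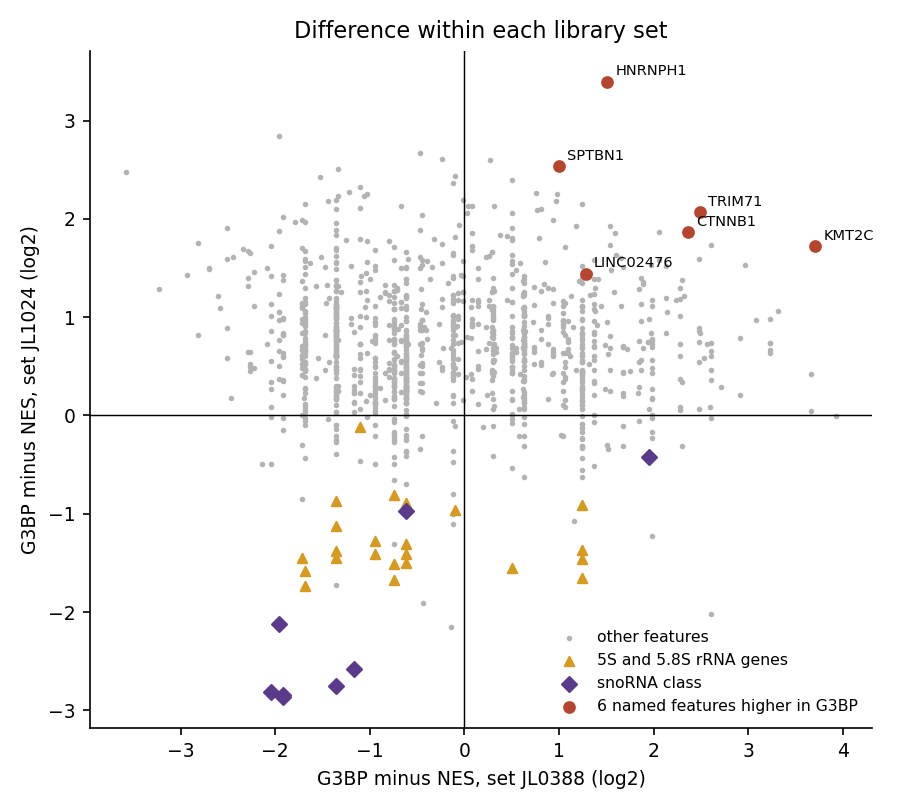
Log2 difference of G3BP minus NES for each feature in set JL0388 (horizontal axis) and in set JL1024 (vertical axis), with snoRNA features as purple diamonds, 5S and 5.8S rRNA genes as yellow triangles and 6 named features in red. Most grey points lie above 0 in JL1024 (median 0.68) and left of 0 in JL0388 (median -0.47), while HNRNPH1, CTNNB1, SPTBN1, KMT2C, LINC02476 and TRIM71 lie above 0 in both, and most snoRNA features below 0 in both.

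The 3′UTR of HNRNPH1 (ENSG00000169045, chromosome 5), a splicing regulator of the hnRNP H family that binds G-rich RNA, was the only feature on the G3BP side that passed edgeR's test scaled to the library total. It held 67.8, 214.5, 371 and 466 CPM in G3BP 3 to 6, and 52.9, 19.9, 35.0 and 18.96 CPM in NES 1 to 4. The 4 G3BP libraries lay above all 4 NES libraries, although G3BP 3 and G3BP 4 rest on 1 tag each. The log2 difference was 2.45 ± 0.65 (SE; limma adjusted p = 0.0979), 1.51 in JL0388 and 3.397 in JL1024, and it rose in edgeR's quasi-likelihood test scaled to the library total (adjusted p = 0.0228). That call was lost in edgeR with TMM on tags in peaks (adjusted p = 0.863), and DESeq2 did not make it. The peak with the most tags, at chr5:179614327-179614347 on the minus strand (GRCh38.p14; coordinates as the table gives them), supplied 437 of the feature's 575 tags (76.0%). That peak held 92 and 336 tags in G3BP 5 and 6 and 4 and 2 in NES 3 and 4. In the inputs, the feature stood at 111 (G3BP) and 114 CPM (NES) in JL0388, and at 222 and 298 CPM in JL1024.

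CTNNB1 encodes β-catenin, the transcriptional effector of Wnt signalling and an adherens junction protein. Its 3′UTR (ENSG00000168036, chromosome 3) held 542, 858, 203 and 163 CPM in G3BP 3 to 6, from 8, 4, 68 and 154 tags, and 52.9, 258, 26.2 and 56.9 CPM in NES 1 to 4. NES 2 lay above G3BP 5 and 6, but within each set the G3BP libraries were higher. The log2 difference was 2.11 ± 0.54 (SE; limma adjusted p = 0.0979), with 2.36 in JL0388 and 1.86 in JL1024. It passed in limma without G3BP 3 (2.19, adjusted p = 0.0197) and without NES 4 (2.32, adjusted p = 0.0310). Without G3BP 3, limma also called HNRNPH1, SPTBN1, KMT2C and LINC02476 on the G3BP side and CCDC200 on the NES side. Its leading peak lay at chr3:41239937-41239957 on the plus strand, with 173 of 258 tags (67.1%).

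SPTBN1, coding for the membrane skeleton protein β-II spectrin, held 407, 1073, 284 and 229 CPM in its 3′UTR in G3BP 3 to 6 and 264, 397, 26.2 and 37.9 CPM in NES 1 to 4. The lines overlapped across sets and separated within each (log2 difference 1.77 ± 0.49 SE, limma adjusted p = 0.129; 1.00 in JL0388 and 2.54 in JL1024). The peak at chr2:54669256-54669276 on the plus strand held 256 of 359 tags (71.3%). TRIM71, an RNA-binding ubiquitin ligase of the let-7 pathway, held 136, 214.5, 71.8 and 85.8 CPM in its 3′UTR in G3BP and 0, 59.6, 0 and 18.96 CPM in NES. All G3BP libraries were higher (2.28 ± 0.75 SE, adjusted p = 0.330), but 1 tag is worth 67.8 CPM in G3BP 3 and 214.5 CPM in G3BP 4. SCD, the stearoyl-CoA desaturase that makes monounsaturated fatty acids, held 339, 644, 188 and 107 CPM in G3BP and 106, 199, 0 and 114 CPM in NES. G3BP 6 lay just below NES 4 (log2 difference 1.72 ± 0.57 SE, adjusted p = 0.330; 1.07 without NES 3 and 2.32 without NES 4).

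The intron feature with the smallest p was KMT2C, a histone H3 lysine methyltransferase. It held 67.8, 429, 50.9 and 44.5 CPM in G3BP 3 to 6 and no tag in NES 1 to 3, with 1 tag (9.48 CPM) in NES 4. These few tags were spread over many peaks: the peak with the most had 10 of 63. The log2 difference was 2.71 ± 0.81 (SE; limma adjusted p = 0.250). The long noncoding RNA LINC02476 held 474, 1287, 344 and 305 CPM in G3BP and 291, 338, 78.7 and 152 CPM in NES, over 812 peaks of which none supplied more than 3.41% of its tags (log2 difference 1.36 ± 0.43 SE, adjusted p = 0.302; 1.28 in JL0388 and 1.44 in JL1024). STRN3 introns (1.56), the 3′UTR of the chromatin remodeller SMARCA5 (2.25) and the 3′UTR of the zinc finger factor RREB1 (2.19) complete the 10 features with the smallest p on the G3BP side, with adjusted p of 0.752, 0.548 and 0.752. RREB1 rests on 3, 1, 15 and 1 tags in G3BP 3 to 6, so its deepest library, G3BP 6, was its lowest at 1.06 CPM.

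**Figure D3:**
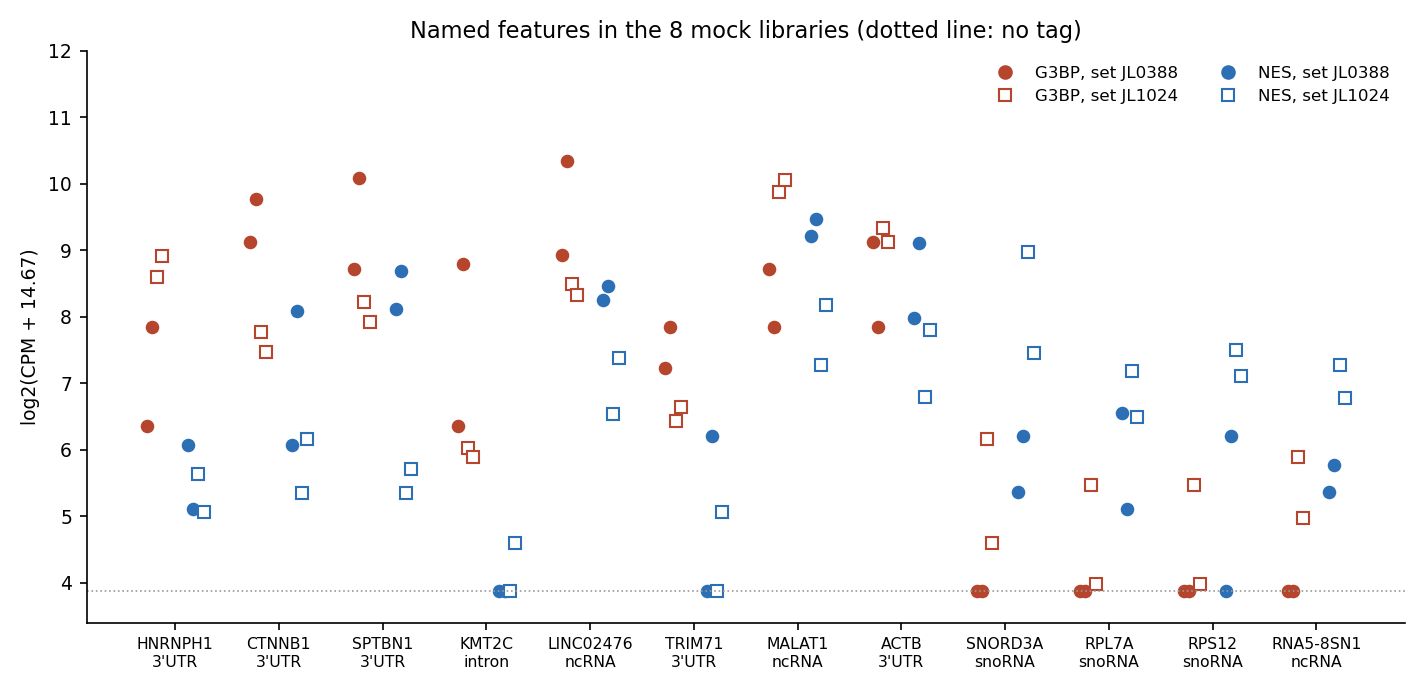
Level of 12 features as log2(CPM + 14.67), vertical axis, in each G3BP (red) and NES (blue) mock library, with filled circles for set JL0388, open squares for set JL1024 and a dotted line at the value of a library with no tag. HNRNPH1, KMT2C and TRIM71 separate the lines in all libraries, on few tags in G3BP 3 and 4, where 1 tag is worth 67.8 and 214.5 CPM. SNORD3A, RPS12 and RNA5-8SN1 are highest in NES 3 and 4. These last features and RPL7A have no tag in G3BP 3 and 4.

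The features with the smallest p on the NES side included snoRNA and ribosomal RNA genes. The U3 small nucleolar RNA, which guides early cleavages of the ribosomal RNA precursor, is encoded by near-identical copies on chromosome 17. Its 4 copies SNORD3A, SNORD3B-1, SNORD3B-2 and SNORD3C held nearly equal tags in each library (56, 52, 57 and 59 in NES 3), so they cannot be told apart and count as 1 observation. Summed, they held 0, 0, 77 and 29 tags in G3BP 3 to 6 and 5, 9, 224 and 61 tags in NES 1 to 4. As a share of tags in peaks that is 0%, 0%, 0.254% and 0.0336% in G3BP and 0.168%, 0.196%, 4.47% and 1.39% in NES. The difference rests on JL1024, because 0 tags in G3BP 3 and 4 cannot be told from the NES 1 and 2 levels at this depth. SNORD3A differed by -2.38 ± 0.76 (log2, SE; limma adjusted p = 0.302; edgeR's adjusted p = 0.0228 scaled to the library total and 0.165 with TMM on tags in peaks), and the other copies lay between -2.43 and -2.06. DESeq2 called all 4 copies (adjusted p = 0.0107 for SNORD3A), and so did limma with quality weights. The 3 features that limma called when scaled to tags in peaks were SNORD3A, SNORD3B-2 and SNORD3C (adjusted p = 0.0357), which are 1 observation. The peak at chr17:19188196-19188216 on the plus strand held 97 of the 105 tags of SNORD3A.

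The snoRNA features inside the ribosomal protein genes RPL7A and RPS12, whose introns host box C/D and H/ACA snoRNAs, followed the same order. RPL7A held 0, 0, 29.9 and 1.06 CPM in G3BP 3 to 6 and 79.3, 19.9, 131 and 75.8 CPM in NES 1 to 4 (log2 difference -2.04 ± 0.82 SE, limma adjusted p = 0.763). RPS12 held 0, 0, 29.9 and 1.06 CPM in G3BP and 0, 59.6, 166 and 123 CPM in NES (-1.87 ± 0.82 SE, adjusted p = 0.776). Both fell in edgeR's quasi-likelihood test scaled to the library total (adjusted p = 0.0492 and 0.0228), a call lost in edgeR with TMM on tags in peaks (adjusted p = 0.249 for RPL7A and 0.165 for RPS12) and made by DESeq2 (0.0464 and 0.0471). Both were also called with quality weights and, chosen after seeing the data, in edgeR on JL1024 alone with either scaling. Of the 10 snoRNA features tested, 4 are the U3 copies, so the median log2 difference of -1.95, beside 0.19 over all features, counts that observation 4 times. Of the other 6, 5 lay below 0 and 1, in DDX39B, above.

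The 5S and 5.8S ribosomal RNA genes lay on the same side. Of 28 such features tested, a group formed after their values had been seen and also made of near-identical copies, 27 lay below 0, with a median of -0.97, and none passed adjustment in unweighted limma or in edgeR over both sets. DESeq2 called RNA5S17, RNA5-8SN1 and RNA5S6, limma with quality weights called members of the group that include RNA5S17 and RNA5-8SN1, and edgeR with TMM on JL1024 alone, chosen after seeing the data, called 8 RNA5S genes. RNA5S17 held 0, 0, 20.9 and 14.8 CPM in G3BP 3 to 6 and 26.4, 39.7, 149 and 56.9 CPM in NES 1 to 4 (-1.71 ± 0.82 SE, adjusted p = 0.907). RNA5-8SN1 and RNA5S6 had log2 differences of -1.64 and -1.58 (adjusted p = 0.907 for both). CCDC200, annotated as ncRNA, completes the 10 features on the NES side at -1.17 ± 0.59 (SE, adjusted p = 0.907); it held 407, 0, 108 and 76.3 CPM in G3BP and 106, 79.5, 481 and 303 CPM in NES, so its lines overlapped in JL0388. CCDC200 ranged from -2.29, without G3BP 3, to -0.35 when 1 library was left out.

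The shares of small structural RNA classes were further apart in set JL1024 than in JL0388 for snoRNA and rRNA. Peaks of the snoRNA class held 0.659% and 0.0579% of the tags in G3BP 5 and 6 and 7.64% and 3.16% in NES 3 and 4, whereas in JL0388 they held 0.328% and 0% in G3BP 3 and 4 and 0.369% and 0.501% in NES 1 and 2. The rRNA class held 0.596% and 0.312% against 6.49% and 2.25% in JL1024, and 0.218% and 0% against 0.302% and 0.218% in JL0388. Small nuclear RNA peaks held 0.329% and 0.213% in G3BP 5 and 6 and 3.01% and 1.95% in NES 3 and 4. In JL0388 their order was the opposite, with 0.928% and 0.736% in G3BP 3 and 4 and 0.570% and 0.370% in NES 1 and 2. Transfer RNA peaks were lower in G3BP in both sets, at 0.273%, 0.295%, 0.109% and 0.0567% in G3BP 3 to 6 and 0.704%, 0.632%, 1.32% and 0.295% in NES 1 to 4, with G3BP 4 and NES 4 nearly equal. These classes were not among the 7 tested, so the shares carry no test. With 1831 and 679 tags in peaks in G3BP 3 and 4, each share there rests on few tags, so the orders in JL0388 are uncertain.

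Libraries outside the comparison show where the shares were high. In JL1024, the enriched mock libraries of the nuclear APEX line (NLS) held 5.31% and 5.12% snoRNA tags, and the arsenite-treated NES libraries 6.34% and 2.66%. The arsenite-treated G3BP libraries of JL1024 held 0.292% and 1.10%, so the lines were in the same order with and without stress, in separate libraries. The inputs of JL1024 held 4.21% (G3BP, 57 of 1353 tags, 95% Wilson interval 3.27% to 5.42%) and 2.58% (NES), but other inputs without streptavidin capture had the opposite order. The arsenite inputs of JL1024 held 0.237% (G3BP) and 3.04% (NES) snoRNA tags, and the mock inputs of JL1024 held 0.739% (G3BP) and 4.70% (NES) in the rRNA class. Among all these libraries of JL0388 the snoRNA share stayed between 0% and 0.658%. Depth differed between the lines in JL1024, and its part in the difference was not tested.

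**Figure D4:**
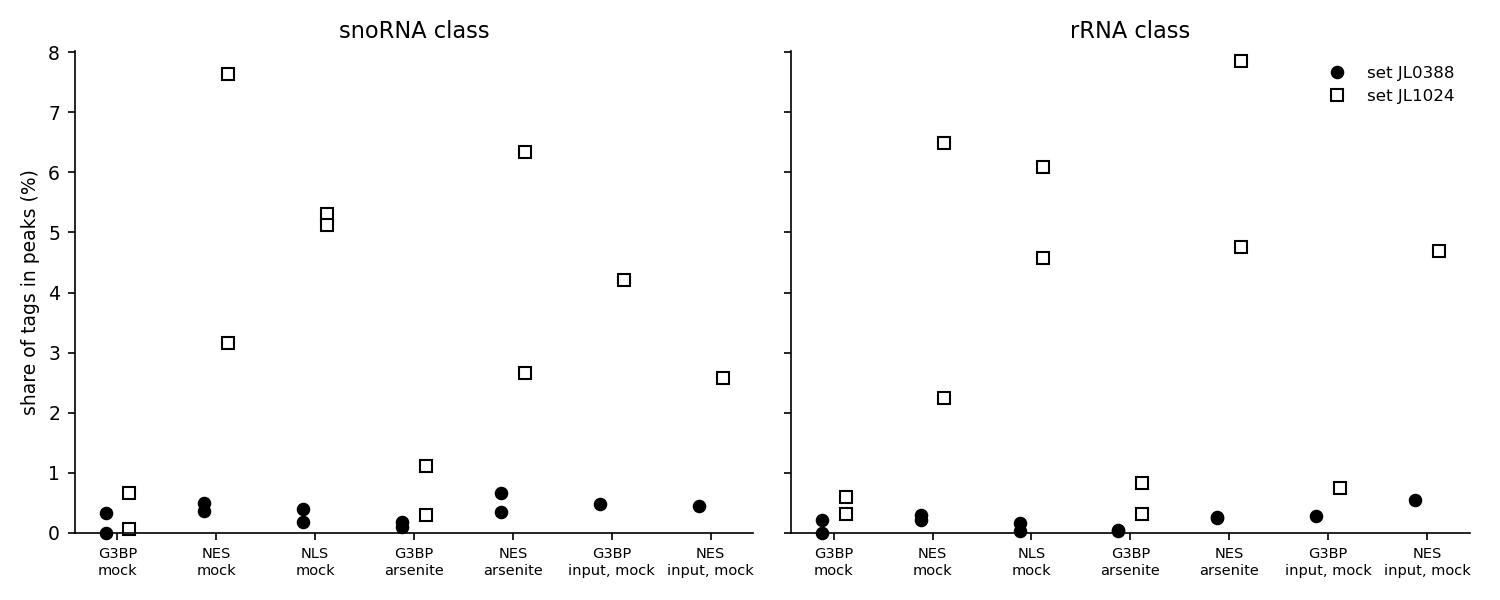
Share of tags in peaks (%, vertical axis) in snoRNA peaks (left) and rRNA peaks (right) for each library of the groups on the horizontal axis, with filled circles for set JL0388 and open squares for set JL1024. In JL1024 the G3BP enriched libraries lie at 0.0579% to 1.10% for snoRNA, below the NES and NLS enriched libraries at 2.66% to 7.64% and the mock inputs at 2.58% and 4.21%, while the JL0388 libraries lie at or under 0.658%.

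The most abundant RNAs were shared by both lines. MALAT1, a nuclear speckle lncRNA, held 407, 214.5, 924 and 1045 CPM in G3BP 3 to 6 and 582, 695, 140 and 275 CPM in NES 1 to 4. The order of the lines turned between sets (log2 difference -1.07 in JL0388 and 2.24 in JL1024; 0.59 ± 0.37 SE over both, limma adjusted p = 0.934; 0.074 without NES 3 and 1.09 without G3BP 4). ACTB, the 3′UTR of β-actin mRNA, held 542, 214.5, 634 and 541 CPM in G3BP and 238, 536, 96.2 and 209 CPM in NES (0.94 ± 0.42 SE, adjusted p = 0.799; -0.06 in JL0388, and 0.53 without NES 3). Introns of ARHGAP5, a GTPase-activating protein, held 407, 644, 162 and 196 CPM against 185, 278, 69.95 and 66.4 CPM, and introns of the phospholipase PLCB1 474, 429, 132 and 123 CPM against 185, 139, 26.2 and 56.9 CPM. Both separated the lines within each set without passing adjustment (1.17 and 1.40, adjusted p = 0.776 and 0.763). SNHG1, a snoRNA host lncRNA, held 67.8, 429, 120 and 16.9 CPM in G3BP and 52.9, 99.3, 621 and 284 CPM in NES, higher in G3BP in JL0388 (1.12) and lower in JL1024 (-2.74). Over both sets SNHG1 differed by -0.81, and by -0.0049 without G3BP 6 and -1.68 without G3BP 4.

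In the limma interaction test of line and capture over the 8 enriched and 4 input libraries, MALAT1 was the only feature called (1 of 1292, 0.0774%; interaction log2 2.35 ± 0.55 SE, adjusted p = 0.0275), and the call did not hold across settings. No feature was called when scaled to tags in peaks, with the larger pseudocount, or without G3BP 4, G3BP 5, G3BP 6, NES 1 or NES 3, each left out in turn. At an unadjusted p under 0.05, 23 interactions (1.78%) were positive and 3 (0.232%) negative. The positive count was 19 (without G3BP 5) to 118 (without G3BP 4) leaving out 1 library, and 11 scaled to tags in peaks. edgeR called 0, with 170 positive and 11 negative at an unadjusted p under 0.05. The MALAT1 inputs held 1654 (G3BP) and 1582 CPM (NES) in JL0388 and 89.0 and 1240 CPM in JL1024, where the G3BP input had 2 MALAT1 tags of 1353 tags in peaks. CTNNB1 came next, at 4.26 ± 1.08 SE and an adjusted p of 0.0566, with no tag in the same shallow input.

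The mRNAs of the proteins named in the design were sparse. G3BP1's own 3′UTR held 0, 0, 38.9 and 31.8 CPM in G3BP 3 to 6 and 79.3, 119, 8.74 and 0 CPM in NES 1 to 4, and the lines were in opposite order in the sets (-2.93 in JL0388 and 1.43 in JL1024; -0.75 ± 0.83 SE, limma adjusted p = 0.934; -0.21 without NES 2 and -1.32 without NES 4). Whether the fusion transcript carries this 3′UTR is not given in the sources used here, so the level of G3BP1 is no check of the labels. ELAVL1, whose 3′UTR HuR is known to bind, had 11 tags over all 8 libraries and was not tested. G3BP2 had 14 3′UTR tags (0.33 ± 0.81 SE). NEAT1, the paraspeckle scaffold, held 67.8, 0, 41.9 and 33.9 CPM in G3BP and 79.3, 0, 43.7 and 9.48 CPM in NES, with a log2 difference of 0.19 ± 0.82 SE. NORAD, a cytoplasmic lncRNA, had 28 tags (0.93 ± 0.84 SE; 0.20 without G3BP 4 and 1.79 without G3BP 3). The adjusted p of G3BP2, NEAT1 and NORAD were 0.960, 0.972 and 0.934.

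Gene lists were described by counts beside the background of 4.41% higher and 0.774% lower at an unadjusted p under 0.05, which itself varied with the libraries kept. They were also set beside 58.5% of all features above 0 and a median of 0.19, which depend on the filter. No member of any list passed adjustment in the unweighted limma test described above, whereas some, such as HNRNPH1, HNRNPL and RBM3, passed with quality weights. Of 54 stress granule proteins, 25 features were tested; 16 lay above 0, near the background share, 1 had an unadjusted p under 0.05, and the median was 0.59. RBM3, a cold-induced RNA-binding protein, held 67.8, 0, 150 and 125 CPM in G3BP and 0, 79.5, 8.74 and 18.96 CPM in NES, with a log2 difference of 1.17 (0.81 without NES 3 and 1.96 without NES 2). Of 38 HNRNP and SRSF splicing factor genes, 27 features were tested, 19 lay above 0, 2 of them at an unadjusted p under 0.05, and the median was 0.45. Besides HNRNPH1, the 3′UTRs of HNRNPK (1.64 ± 0.77 SE), HNRNPU (1.21 ± 0.62 SE) and HNRNPL (1.19 ± 0.81 SE) stood above 0, with adjusted p of 0.907, 0.934 and 0.934. HNRNPL was 0.80 without G3BP 3, 2.14 without G3BP 4 and -0.24 in JL0388 alone. The share of all tags that fell in the splicing factor genes was 1.15%, 1.47%, 1.47% and 1.56% in G3BP 3 to 6 and 1.11%, 1.48%, 0.379% and 0.500% in NES 1 to 4, so only NES 3 and 4 were apart.

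Hepatocyte secretory genes gave 8 tested features of 52 genes, with 6 above 0, 2 of them at an unadjusted p under 0.05, and a median of 0.69. Introns of GPC3, the cell-surface glypican that marks hepatocellular carcinoma, held 67.8, 214.5, 89.8 and 94.3 CPM in G3BP 3 to 6 and 52.9, 0, 26.2 and 18.96 CPM in NES 1 to 4. Every G3BP library was the higher (1.83 ± 0.74 SE, adjusted p = 0.763), although G3BP 3 and 4 rest on 1 tag each. The AFP coding sequence, from α-fetoprotein, held 203, 214.5, 68.8 and 47.7 CPM against 26.4, 159, 8.74 and 47.4 CPM, a log2 difference of 1.16 (0.70 without NES 1). In lipid synthesis, 9 features were tested, 1 of them higher at an unadjusted p under 0.05, and the median was 0.44. The introns of ACACA, the acetyl-CoA carboxylase, stood at 1.05 ± 0.84 SE beside SCD, with 0.26 without G3BP 3 and 1.60 without G3BP 4. Actin and cytoskeleton genes had 8 features, 2 of them at an unadjusted p under 0.05 and higher, and a median of 0.55, with the non-muscle myosin MYH9 at 1.28 ± 0.85 SE (0.86 without G3BP 6 and 1.94 without G3BP 4). The calnexin gene CANX stood at 1.03 ± 0.63 SE among 2 chaperone features.

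Targets and regulators of mRNA decay gave few features to test, and none had an unadjusted p under 0.05 apart from CTNNB1. RNA silencing and decay factors gave 13 features with a median of 0.17. Among them were TNRC6B, the GW182 protein of miRNA silencing, at -0.04 (0.95 without G3BP 4) and the AU-rich element binding protein KHSRP at 0.17 (-0.15 without NES 4). Only 2 features of AU-rich immediate early genes could be tested. They were the ATF3 intron at 1.10 ± 0.76 SE (0.63 without NES 4 and 1.91 without G3BP 4) and the JUND 3′UTR at 0.29 ± 0.85 SE (-0.27 without NES 3). Cell cycle and survival mRNAs known as HuR targets gave 8 features, 3 above 0 and 5 below, with a median of -0.17. CTNNB1 is among them, and NCL, coding for nucleolin, stood at 0.37 (-0.43 without NES 3). Translation factors gave 8 features with a median of 0.30, including EIF2S3 at 0.59 (0.044 without G3BP 5 and 1.47 without G3BP 4) and the EIF4G3 introns at 1.08 (0.51 without G3BP 3 and 2.07 without G3BP 4). Nuclear-retained lncRNAs had 4 features, all above 0 and 1 of them at an unadjusted p under 0.05, with a median of 0.65, among them FTX, a regulator of XIST, at 1.61 ± 0.78 SE.

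Lists tied to snoRNA genes lay below 0. The snoRNA host lncRNAs gave 6 features, 5 below 0, with a median of -0.68; GAS5 held 203, 0, 102 and 14.8 CPM in G3BP and 26.4, 79.5, 420 and 142 CPM in NES (-1.15 ± 0.69 SE, limma adjusted p = 0.934; -0.55 without G3BP 6 and -2.13 without G3BP 3). Their share of all tags was 0.492%, 0.442%, 0.313% and 0.0671% in G3BP 3 to 6 and 0.201%, 0.305%, 3.15% and 1.18% in NES 1 to 4, so the order of the lines turned between sets. The cytosolic ribosomal protein genes gave 3 features, all snoRNA features and all below 0. Mitochondrially encoded RNAs gave 2 features, the ribosomal RNAs MT-RNR2 (0.04) and MT-RNR1 (-0.98).

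Arsenite-treated libraries of the same lines and sets share no library with the mock comparison. Cells had received 0.5 mM arsenite for 45 min. HNRNPH1 held 338, 392, 581 and 792 CPM in the 4 arsenite G3BP libraries and 209, 78.7, 37.3 and 117 CPM in the 4 arsenite NES libraries, without overlap. CTNNB1 held 755, 392, 384 and 672 CPM against 392.1, 289, 120 and 65.5 CPM, with 1 G3BP and 1 NES library of JL0388 at nearly the same level. KMT2C, in contrast, had 0 to 35.6 CPM in G3BP and 4.14 to 26.1 CPM in NES, so its lines overlapped. Of the 57 features at an unadjusted p under 0.05 on the G3BP side, 51 (89.5%) lay above 0 under arsenite, beside 957 of all 1292 (74.1%); of the 10 on the NES side, 4 of them U3 copies, 2 did. Over all features the mock and arsenite differences had a Pearson's r of 0.19 and a Spearman's rho of 0.14 (n = 1292 features that share libraries; no p is given).

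Fractionated nuclear and cytoplasmic libraries gave another readout of the same features. The cytoplasmic minus nuclear log2 difference, from 3 libraries of each fraction, had a median of -0.41 in the 57 features on the G3BP side at an unadjusted p under 0.05 and -0.39 in all 1292, and 27 of the 57 (47.4%) were above 0 beside 40.1% of all. The HNRNPH1 3′UTR was the more cytoplasmic (1.43), as were CTNNB1 (2.40), SPTBN1 (1.84) and TRIM71 (1.75), while LINC02476 (-0.85) and the KMT2C introns (-0.67) were the more nuclear. The 10 features on the NES side had a median of -1.34. Across features the difference between lines and the difference between fractions had a Pearson's r of 0.04 and a Spearman's rho of -0.03 (n = 1292 features).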

How the data were processed

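HuR CLIP-seq was analysed in 8 of 58 libraries. The authors deposited 1 table of signal per peak and library. From the values, each is a whole number of tags divided by a total of the library, and whole tags were recovered for 100% of values (tolerance 0.05), so depth is known. The submitters' processing notes name Bowtie2, SAMtools, bedtools, HOMER and GRCh38.p14, with no roles; duplicate handling and the peak caller's settings are not given in the sources used here, nor whether coordinates count from 0. How multi-mapped tags of near-identical genes were assigned is likewise not given.

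Of 395471 lines, 8257 repeats of a position were dropped, leaving 387214 peaks of 20 nt; 84358 have no gene name and enter shares only. Signal was multiplied to CPM and summed per gene name and class. limma 3.58.1 (R 4.3.3; lmFit, eBayes with trend) tested log2(CPM + 14.7), the median value of 1 tag, in features non-zero in at least 4 libraries with at least 10 tags, with the set as covariate and Benjamini-Hochberg adjustment at 0.05. edgeR 4.0.16 and DESeq2 1.42.0 on recovered tags were alternatives. Shares used two-sided exact permutation tests over 70 assignments (Python 3.11.15, scipy 1.17.1). The fits were tested on simulated data.

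Named features are those past the threshold; where under 10 pass, the 10 per direction with the smallest limma p (at least 20 tags, same sign in edgeR); the 10 highest means; 7 set genes; and 2 to 4 members with most tags per list; 1 such member is not reported here. The members, lists and rules were chosen with earlier results of these data known. Replicate numbers from the descriptions were checked for pairing: the correlation of same-numbered deviations was 0.009 in JL0388 and 0.07 in JL1024, which does not show pairing.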

Additional observations from a re-analysis of the deposited data

Results flagged for a closer look

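Among 114 groups of 4 libraries examined for a library standing apart, 17 had one; chance gives about 1 in 20. In G3BP 4, the shallowest library, where 1 tag is worth 214.5 CPM, KMT2C introns (429 CPM), the SMARCA5 3′UTR (429 CPM), STRN3 introns (643.5 CPM), NORAD (214.5 CPM), the HNRNPU 3′UTR (643.5 CPM) and MT-RNR2 (643.5 CPM) were far above the other G3BP libraries, each on 1 to 3 tags. In G3BP 5, the snoRNA features stood apart from the other G3BP libraries at 53.9 CPM for SNORD3C, 65.8 for SNORD3B-2, 56.8 for SNORD3A, 53.9 for SNORD3B-1, 29.9 for RPL7A and 29.9 for RPS12. Among the NES libraries, NES 2 stood apart for CTNNB1 (258 CPM) and RREB1 (19.9 CPM, 1 tag), NES 4 for KMT2C (9.48 CPM, 1 tag), NES 1 for MYH9 (26.4 CPM, 1 tag), and NES 3 for RNA5S6 (314.8 CPM).

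MALAT1 had an interaction of line and capture of 2.35 on the log2 scale (limma adjusted p = 0.0275), where the G3BP input of JL1024 had 2 MALAT1 tags. The call was lost in edgeR, scaled to tags in peaks, with the larger pseudocount, and without G3BP 4, G3BP 5, G3BP 6, NES 1 or NES 3.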

How the results depend on the processing

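No gene-by-class feature passed in the limma test, and 0 passed without the set covariate, centred on the median, with either pseudocount, in at least 6 libraries, with repeats kept, or with G3BP 3 and 4 summed or left out. Calls numbered 3 scaled to tags in peaks (all U3 copies), 10 in features seen in 1 library or more, 7 in edgeR, 0 in edgeR with TMM, 9 in DESeq2 (1227 adjusted p not given), 176 with library quality weights (154 higher, 22 lower), and, chosen after seeing the data, 10 in edgeR on JL1024 and 19 with TMM there. Leaving out 1 library gave 0 to 6 (6 without G3BP 3, 1 without NES 4). Summed genes gave 226 calls in JL1024 alone, 3 scaled to tags in peaks, 9 without the filter, 6 in edgeR, 5 in DESeq2, 330 with quality weights, 100 in edgeR on JL1024 and 41 with TMM there; leaving out 1 library gave 0 to 6 (6 without G3BP 3). The capture interaction was called for 0 features scaled to tags in peaks, with the larger pseudocount and in edgeR, 2 with the smaller, and 0 to 3 leaving out 1 library. The difference in percent of tags in peaks was 3.83 to 5.82 leaving out 1 library, and 5.82 without NES 2 passed (exact permutation p = 0.0286). Causes were not tested.

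With the replicate number as a block, 0 features passed, and 56 and 10 had an unadjusted p under 0.05; the pairing is not shown.

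The 3′UTR share difference turned to -0.72 without G3BP 3 and 4, -2.83 in JL0388, -0.26 as a share of peaks and -1.06 of 3′UTR plus intron tags (-1.03 to 8.23 leaving out 1 library). Transposable elements turned to 0.83 in JL0388 and 0.15 per library total (-1.34 to 0.59 leaving out 1), ncRNA to 0.46 and 0.30, unannotated to 0.43 per library total, and downstream regions to -0.032 outside snoRNA and ncRNA peaks.

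Of 49 named features, 31 kept 1 sign in every alternative run, and leaving out 1 library moved 23 by over 1.5 times, 7 of them with a change of sign. In JL0388 alone, ACTB was -0.063, ATF3 -0.47, EIF2S3 -1.34, G3BP2 -0.12, HNRNPL -0.24, JUND -0.95, KHSRP -0.74, MALAT1 -1.07, NCL -1.36, NEAT1 -0.095, RBM3 -0.10 and SNHG1 1.12. In JL1024 alone, as without G3BP 3 and 4, G3BP1 was 1.43, TNRC6B 1.55 and MT-RNR2 -1.08. With G3BP 3 and 4 summed, TNRC6B was 0.81 and MT-RNR2 -0.21. Scaled to tags in peaks, MALAT1 was -0.24, MT-RNR2 -0.77 and NEAT1 -0.29. Centred, KHSRP was -0.015 and MT-RNR2 -0.14. In edgeR, G3BP1 was 0.83, TNRC6B 1.14 and MT-RNR2 -0.53. With TMM, MALAT1 was -0.20, MT-RNR2 -1.35, NEAT1 -0.31 and TNRC6B 0.044. In DESeq2, ACTB was -0.044, AFP -0.078, CANX -0.062, MALAT1 -0.38, MT-RNR2 -1.45 and NEAT1 -0.46. With quality weights, G3BP1 was 1.11, TNRC6B 1.35 and MT-RNR2 -0.83. In edgeR on JL1024, G3BP1 was 2.85, TNRC6B 2.30 and MT-RNR2 -1.21, and with TMM there ACACA was -0.074, CANX -0.22, G3BP1 2.38, NEAT1 -0.046, TNRC6B 1.82 and MT-RNR2 -1.71. Leaving out 1 library, G3BP2 ranged from -0.084 to 0.91, JUND from -0.27 to 0.91, KHSRP from -0.15 to 0.65, MT-RNR2 from -0.78 to 0.42, NCL from -0.43 to 0.76, NEAT1 from -0.29 to 0.79 and TNRC6B from -0.44 to 0.95. The planned share of U-rich peaks was not run, as no genome was used here. Depth in G3BP 3 and 4 limits every JL0388 value.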
